A study of Mus musculus with 21 samples.

Results

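Meiosis genes were described across haploid embryonic stem cells, diploid embryonic stem cells, fibroblasts and haploid male germ cells of the mouse. The list held 33 genes of meiotic prophase and the meiotic divisions. Of these, 29 had at least 1 probe set whose annotation gave a single gene symbol, among 18193 such genes on the array, and where a gene had several, the one brightest on average across the 21 arrays was used. Rad21l, Spata22, Hfm1 and Rnf212 were not analysed here. The arrays fell into 7 groups of 3. Round sperm, which follow meiosis, came fresh from the testis of 129 Sv mice and had been sorted as haploid G0/G1 cells. The androgenetic haploid embryonic stem (ahES) lines AH129-5, AH129-N1 and AH129-NC1, which carry a single paternal set of chromosomes, were of the 129 Sv background, grew in N2B27 medium with 2i and LIF, and were sorted in the same way. The diploid embryonic stem (ES) lines CS1-1 and R1 shared that background and medium, with no sort stated. Mouse embryonic fibroblasts (MEF) were of the CD1 background and grew in DMEM with serum, also with no sort stated. Ploidy and sorting therefore cannot be told apart between ahES and diploid ES cells, nor can cell type, strain and medium between ES cells and MEF. No treatment, transgene or deletion was named for any group, and each ES group was 1 line.

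Meiosis pairs homologous chromosomes, exchanges DNA between them and divides the genome down to a haploid set. Cohesin rings with meiotic subunits hold the chromatids, an axis and the synaptonemal complex join the homologues, Spo11 cuts the DNA, strand exchange proteins repair the breaks from the homologue, and crossover proteins turn some repair sites into links that last until division. In the mouse these genes are best known from the germline, and several of them are kept low in ES cells and other cells outside it by DNA methylation and by a Polycomb-type complex containing E2F6, MGA, MAX, L3MBTL2 and PCGF6.

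The level of a gene is given as log2 of its MAS5 signal plus an offset of 9.70 signal units, and levels are compared for 1 probe set at a time, never between genes. The 40th percentile of an array, taken as the limit of background, averaged 5.49 on this scale and ran from 5.34 to 5.63. Round sperm carried their label's markers: 9 of 9 round spermatid genes lay above that limit on all 3 arrays, with a summed signal of 125600 to 190400, against 0 of 9 and at most 223.2 in any other group. Of 7 pluripotency markers, 4 lay above it in round sperm, with a summed signal of 802 to 837.5, against 7 in each ES line, with 89300 to 110300. Of 5 spermatogonial markers, 5 were above the limit in round sperm (summed signal 580.2 to 621.1) and 3 to 5 in the ES lines (3262 to 5662). Of 10 Sertoli markers, 5 were above it in round sperm and 2 to 4 in the ES lines, with sums of 902.7 to 1114 in round sperm and 985.4 to 2240 in the ES lines. Of 6 Sertoli markers tested, 3 were higher and 2 lower in round sperm than in ahES cells. Over all tested genes, 32.2% were higher and 40.8% lower. The lower ones were Aard and Clu. The higher ones were Inha (8.04 ± 0.24 in round sperm, 5.53 ± 0.78 in ahES cells), Fshr (6.09 ± 0.48 in round sperm, 4.95 ± 0.65 in ahES cells) and Sox9 (5.89 ± 0.16 in round sperm, 4.79 ± 0.67 in ahES cells). Of 3 Leydig markers, 1 was above the limit in round sperm, Cyp17a1, which was higher there (6.87 ± 1.03 in round sperm, 4.24 ± 0.60 in ahES cells). Cyp11a1, another Leydig marker, was lower in round sperm than in ahES cells. The part of other testis cells in the round sperm values was not tested. The 3' minus 5' log2 difference of Gapdh, a sign of RNA integrity, was 0.55 ± 0.17 in round sperm (SD, n = 3), -0.24 ± 0.08 in ahES cells (n = 9), -0.24 ± 0.04 in diploid ES cells (n = 6) and -0.21 ± 0.04 in MEF (n = 3). For Actb it was 0.74 ± 0.25 in round sperm, 0.55 ± 0.07 in ahES cells, 0.57 ± 0.05 in diploid ES cells and 0.34 ± 0.06 in MEF. The Actb ranges of round sperm and both kinds of ES cell overlapped. The part of RNA integrity in the results below was not tested. These are bulk samples, in which fewer cells of a type and less RNA per cell cannot be told apart. The labels call the 3 arrays of a group biological replicates without naming their source, so p-values rest on the spread between these samples. In every comparison but that of ahES with diploid ES cells, each line or group was fitted with its own mean. The SE and p-values of those comparisons rest on the spread of arrays within a line or group. They do not cover the spread among the ahES lines.

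Most meiosis genes were above background in round sperm, a share above that of all genes, while in the ES lines their share was near that of all genes and in MEF below it. All 3 arrays lay above the limit for 26 of 29 meiosis genes in round sperm, against a background of 63.7% of all genes. The number was 20 in AH129-5 (64.1% of all genes), 19 in AH129-N1 (63.2%), 19 in AH129-NC1 (63.7%), 21 in CS1-1 (62.7%), 17 in R1 (63.3%) and 7 in MEF (62.6%). All 15 ES arrays were above the limit for 16 genes (56.4% of all genes): the cohesin subunits Rec8 and Stag3, the axis and synapsis genes Sycp3, Syce1, Syce2, Tex12, Tex11 and Hormad1, the strand exchange genes Psmc3ip, Mnd1, Trip13 and Tex15, and also Mlh3, Majin, Stra8 and Hspa2. In all, 7 meiosis genes were above it on all round sperm arrays but not on all 3 arrays of any ES line. These were Sycp2, Spo11, Mei1, Meiob, Msh4, Terb1 and Ccna1. Single ES arrays were above it for some. Of the 15, these were 6 for Mei1, 4 for Terb1, 3 for Ccna1, 2 for Spo11, 1 for Sycp2 and 0 for Meiob and Msh4. Terb1 was above it on 2 of the 3 AH129-NC1 arrays. Prdm9, the methyltransferase that places mouse recombination hotspots, was above the limit on all 3 arrays of no group. Its levels were 3.93 to 6.10 in round sperm, with a mean of 5.19 and 2 of 3 arrays above the limit. Over the ES arrays they were 5.09 to 6.59, with a mean of 5.74 and 8 of 15 arrays above it. The limit was met in all 7 groups by 6 genes: Syce2, Psmc3ip, Trip13, Tex15, Mlh3 and Hspa2.

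**Figure D1:**
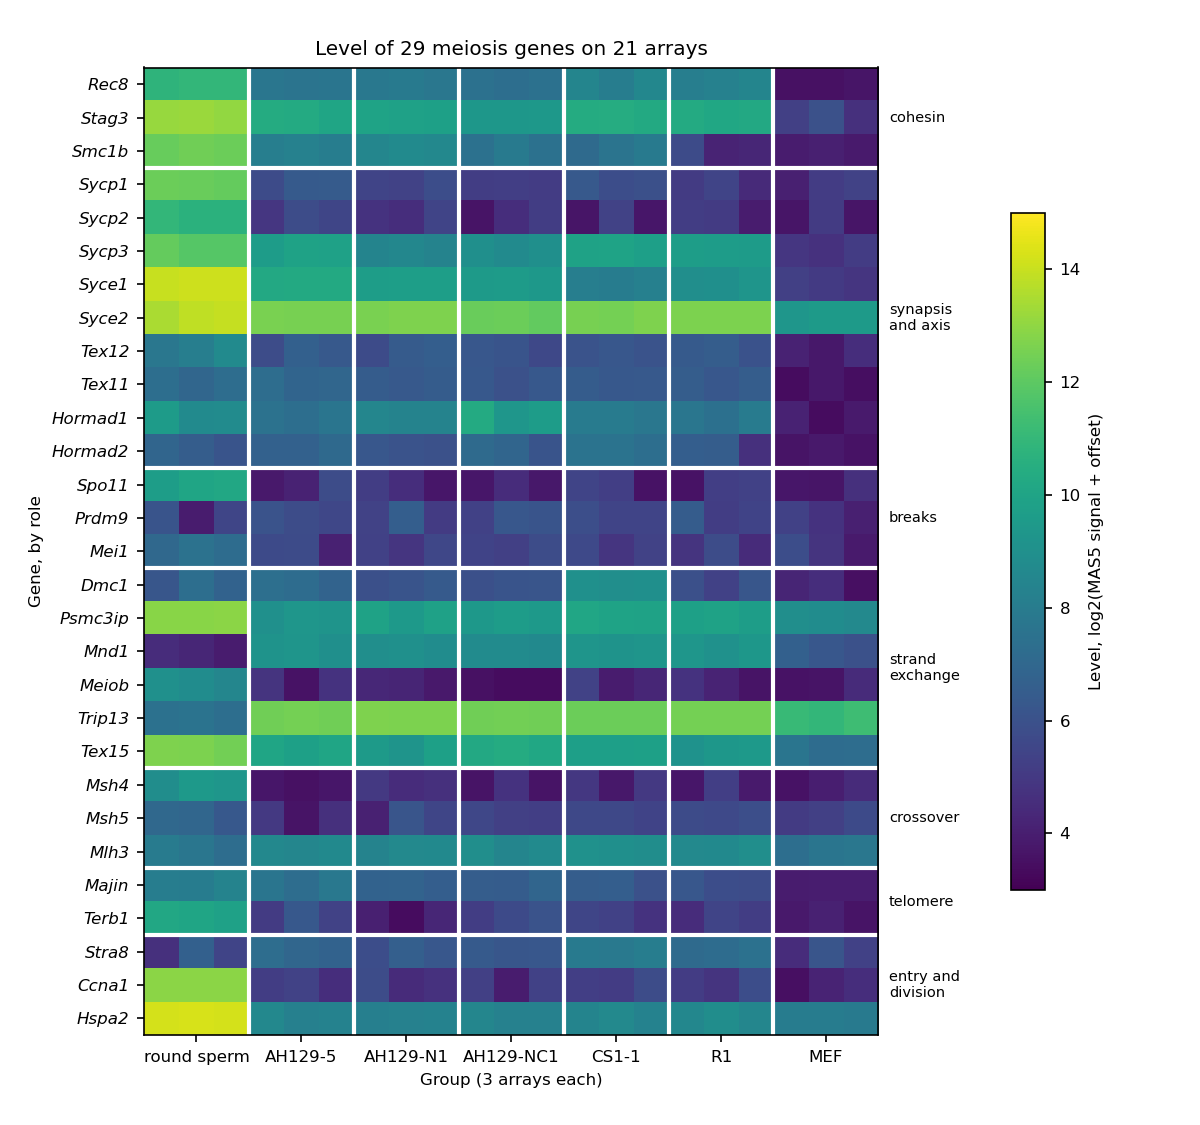
Levels of the 29 meiosis genes (rows, ordered by role) on the 21 arrays (columns, 3 per group), as log2 of MAS5 signal plus offset, in colour. Round sperm, at the left, are the brightest group for most rows, the 5 ES lines are intermediate for many, and MEF are dark for all but a few; Mnd1 and Trip13 are darkest in round sperm.

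Promoters are shown for 4 genes as examples. Stag3 and Sycp3 were above the limit on every ES array. Sycp2 and Ccna1 were above it on all round sperm arrays but not on every array of any ES line. RefSeq promoters of the GRCm38.p6 build, from 250 bases before to 50 bases after an annotated start, were found for 28 of the 33 genes. For 18 of the 28 a window held the outermost start that RefSeq gives the gene, and for 10 it held only a start farther inside. Of the genes printed here, the windows of Stag3 and Ccna1 belong to such inner starts, 7995 and 2579 bases downstream of the outermost one, and those of Sycp3 and Sycp2 hold it. Capitals mark the E2F6-type site TCCCGC and the E-box CACGTG, each searched on both strands, which can share no more than an end base. Stag3 lies at chr5:138280259-138280558 on the plus strand, Sycp3 at chr10:88459337-88459636 on the plus strand, Sycp2 at chr2:178407609-178407908 on the minus strand and Ccna1 at chr3:55055006-55055305 on the minus strand.
Stag3: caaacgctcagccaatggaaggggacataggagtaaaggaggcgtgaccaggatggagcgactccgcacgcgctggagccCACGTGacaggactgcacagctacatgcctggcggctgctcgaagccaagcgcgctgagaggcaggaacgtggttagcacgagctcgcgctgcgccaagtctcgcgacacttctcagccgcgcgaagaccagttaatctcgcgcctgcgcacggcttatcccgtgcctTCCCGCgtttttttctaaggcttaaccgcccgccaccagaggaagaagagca
Sycp3: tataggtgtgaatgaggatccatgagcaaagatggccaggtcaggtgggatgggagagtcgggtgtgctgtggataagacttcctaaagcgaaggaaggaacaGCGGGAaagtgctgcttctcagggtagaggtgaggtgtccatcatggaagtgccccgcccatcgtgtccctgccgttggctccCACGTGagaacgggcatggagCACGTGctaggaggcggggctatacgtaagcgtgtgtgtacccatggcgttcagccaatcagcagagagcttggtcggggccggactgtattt
Sycp2: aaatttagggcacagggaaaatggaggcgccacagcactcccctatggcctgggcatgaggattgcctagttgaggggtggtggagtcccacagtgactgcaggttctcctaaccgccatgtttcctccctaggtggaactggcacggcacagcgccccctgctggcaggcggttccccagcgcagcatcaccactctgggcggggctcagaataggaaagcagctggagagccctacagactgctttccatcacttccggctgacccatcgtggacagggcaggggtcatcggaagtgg
Ccna1: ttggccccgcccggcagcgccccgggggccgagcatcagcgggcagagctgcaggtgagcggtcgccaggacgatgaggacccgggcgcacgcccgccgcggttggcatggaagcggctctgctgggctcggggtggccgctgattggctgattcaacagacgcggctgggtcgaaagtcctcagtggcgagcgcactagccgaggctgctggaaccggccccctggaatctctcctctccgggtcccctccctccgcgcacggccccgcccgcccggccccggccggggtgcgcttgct

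The Stag3 promoter held 1 E2F6-type site and 1 E-box, and the Sycp3 promoter held 1 E2F6-type site and 2 E-boxes. Neither motif was found in the Sycp2 and Ccna1 windows. These examples do not stand for all genes of their sets. Terb1, in the set of Sycp2 and Ccna1, held 2 E2F6-type sites. Syce1, Trip13, Mlh3, Stra8 and Hspa2, in the set of Stag3 and Sycp3, held neither motif. Over the meiosis genes, 17 of 28 (60.7%) had an E2F6-type site in any of their promoters, against 22% of 27025 genes, and 7 of 28 (25.0%) had an E-box, against 8.09%. With the promoter richest in CpG taken for each gene, the median number of CpG was 21 in the meiosis genes and 8 over all genes. Among the 13 genes with a promoter that were above the limit on all 15 ES arrays, 8 had an E2F6-type site and 5 an E-box. Another 5 genes with a promoter were above it on all round sperm arrays but not on every array of any ES line. Of these 5, 1 had an E2F6-type site, Terb1, and 0 had an E-box. The windows differ between the sets. Among the 5, those of Mei1, Msh4 and Ccna1 belong to inner starts, and those of Sycp2 and Terb1 hold the outermost one. Among the 13, only those of Stag3, Stra8 and Hspa2 belong to inner starts. The part of window placement in these counts was not tested. These are matches of letters in a fixed window and describe the sequence only.

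Whether the meiosis genes stand higher in haploid germ cells than in haploid ES cells was addressed by round sperm minus ahES. Of 28 meiosis genes tested, 20 were higher in round sperm (adjusted p under 0.05 and at least 2-fold, limma), where 32.2% of all tested genes were higher. Mnd1 and Trip13 were lower, where 40.8% of all tested genes were lower. Dmc1, Hormad1, Hormad2, Mlh3, Stra8 and Tex11 did not pass, and Prdm9 was not tested. The arrays of all 20 higher genes lay above every ahES array (35.0% of all tested genes did), and those of Mnd1, Trip13 and Mlh3 lay below every ahES array (43.4% did). Of the 28, 8 were tested only because round sperm passed the filter on low values and 2, Mnd1 and Stra8, only because ahES cells did, so the count is a description. The median difference was 2.79 over the 28 genes and -0.33 over all genes tested, and the value over all genes was -0.10 after quantile normalization.

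**Figure D2:**
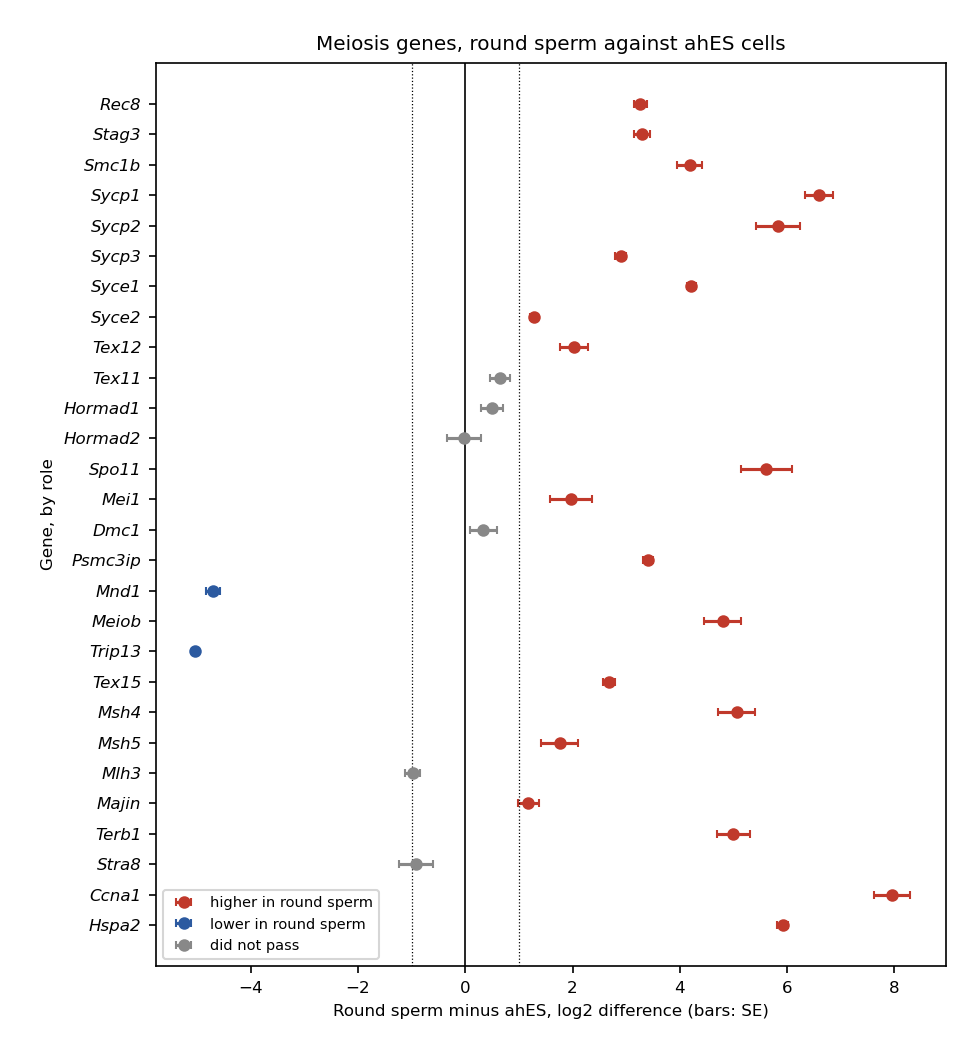
Log2 difference of round sperm minus ahES cells for the 28 meiosis genes tested, ordered by role; points are fitted differences, bars are SE, and dotted lines mark 2-fold. Ccna1 lies farthest to the right at 7.95 and Trip13 farthest to the left at -5.03.

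All 3 meiotic cohesin subunits were higher in round sperm than in ahES cells. Smc1b, the meiotic SMC subunit, had levels of 12.22, 12.41 and 12.31 in round sperm, against 7.45 to 8.73 with a median of 8.13 in ahES cells. Stag3, the meiotic HEAT-repeat subunit, had levels of 13.15, 13.18 and 13.06 in round sperm, against 9.33 to 10.38 with a median of 9.88 in ahES cells. No round sperm array came near the ahES range of either gene. The differences were 4.18 ± 0.23 (log2 ± SE) for Smc1b, 3.30 ± 0.16 for Stag3 and 3.26 ± 0.12 for Rec8, the kleisin that replaces Rad21 in meiosis.

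The synaptonemal complex and axis genes divided into 6 that were higher in round sperm and 3 that did not pass. Sycp1, which forms the transverse filaments, had levels of 12.29, 12.25 and 12.17 in round sperm, against 5.12 to 6.45 with a median of 5.44 in ahES cells. Sycp2, a lateral element protein, had levels of 10.97, 10.67 and 10.68 in round sperm, against 3.65 to 5.78 with a median of 4.92 in ahES cells. Both were at or close to background in ahES cells and well above it in all round sperm arrays. Sycp1 was higher in round sperm by a fitted log2 difference of 6.60 ± 0.26, with 5 of 9 ahES arrays above the limit of background, so its size is approximate. Sycp2 was at least 38.0-fold higher, where a bound puts the 40th percentile in place of lower values. Syce1, a central element protein, was higher by 4.22 ± 0.09, Sycp3, the other lateral element protein, by 2.89 ± 0.10, Tex12, another central element protein, by 2.03 ± 0.26, and Syce2, their partner, by 1.28 ± 0.07. The HORMA-domain axis proteins gave small values: Hormad1 differed by 0.50 ± 0.20 and Hormad2 by -0.03 ± 0.32. Hormad1 means were 9.06 ± 0.47 in round sperm (SD, n = 3) and 8.56 ± 1.01 in ahES cells (n = 9), and its difference was -0.02 without the line AH129-5 and 1.10 without AH129-NC1, where it passed. Tex11, an X-linked gene of the synapsis and recombination machinery, differed by 0.65 ± 0.19 (adjusted p = 0.00268) without reaching 2-fold, and by 1.19, which passed, after quantile normalization.

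Spo11, which makes the breaks that start recombination, was near background in ahES cells and clear in round sperm. Its levels were 9.68, 10.03 and 10.21 in round sperm, against 3.72 to 5.79 with a median of 4.17 in ahES cells. The round sperm arrays all lay above the ahES range, and the gene was at least 21.8-fold higher (log2 difference 5.61 ± 0.47). Mei1, which is needed for break formation in the mouse, was at least 3.29-fold higher.

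The strand exchange genes moved in both directions. Meiob, a single-strand DNA binding protein of meiosis, was at least 9.80-fold higher in round sperm, Psmc3ip (also called Hop2) was 10.6-fold higher and Tex15 was 6.40-fold higher. Mnd1, the protein partner of Psmc3ip, had levels of 4.52, 4.29 and 3.91 in round sperm, against 8.68 to 9.28 with a median of 8.91 in ahES cells. Trip13, the ATPase that remodels HORMA-domain proteins and also acts in the mitotic checkpoint, had levels of 7.47, 7.56 and 7.34 in round sperm, against 12.38 to 12.69 with a median of 12.43 in ahES cells. Every round sperm array lay below every ahES array for both genes. Mnd1 fell by at least 10.8-fold in round sperm (log2 difference -4.70 ± 0.14, adjusted p = 1.56e-18) and Trip13 by 32.8-fold (-5.03 ± 0.06, adjusted p = 2.37e-25). The partners Psmc3ip and Mnd1 thus differed in opposite directions. Dmc1, the meiotic recombinase, differed by 0.33 ± 0.25, with means of 6.79 ± 0.56 in round sperm and 6.46 ± 0.55 in ahES cells.

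Of the crossover genes, the MutS homologues were higher in round sperm and the MutL homologue was not. Msh4 had levels of 8.87, 9.44 and 9.28 in round sperm, against 3.55 to 5.00 with a median of 3.75 in ahES cells. That is at least 12.9-fold higher, and Msh5, its partner, was at least 2.25-fold higher. Mlh3 had levels of 7.97, 7.71 and 7.27 in round sperm, against 8.39 to 8.94 with a median of 8.65 in ahES cells. Its arrays did not overlap, and its difference of -0.98 ± 0.14 (adjusted p = 7.45e-07) stopped just short of 2-fold. It passed 2-fold with no offset (-1.02), without the line AH129-N1 (-1.01) and when either round sperm replicate 1 (-1.14) or replicate 2 (-1.01) was left out, among others.

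Telomere attachment genes tether chromosome ends to the nuclear envelope in prophase. Terb1 and Majin, those among the meiosis genes, were both higher in round sperm. Their partner Terb2, from the list of other prophase genes described below, was lower there than in ahES cells. Terb1 was at least 20.7-fold higher. Majin was higher by 1.18 ± 0.19, a value of 0.96 with an offset of 50 signal units, which no longer passed.

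The largest rise among the meiosis genes belonged to Ccna1, the germline A-type cyclin needed for male meiotic division in the mouse. Its levels were 12.90, 12.92 and 12.91 in round sperm, against 3.92 to 5.77 with a median of 5.19 in ahES cells. Hspa2, the testis-enriched HSP70 chaperone, had levels of 14.23, 14.29 and 14.23 in round sperm, against 8.18 to 8.61 with a median of 8.27 in ahES cells. Both genes were uniformly high in round sperm and far below that in every ahES array. Ccna1 was at least 165-fold higher (log2 difference 7.95 ± 0.33, adjusted p = 1.06e-15) and Hspa2 60.4-fold higher (5.92 ± 0.10). Stra8, the retinoic acid-induced gene that opens the meiotic programme, had levels of 4.66, 6.67 and 5.45 in round sperm, against 5.85 to 7.30 with a median of 6.39 in ahES cells. These ranges overlapped, and the difference of -0.92 ± 0.33 (adjusted p = 0.0124) was below 2-fold. It was -1.46 and passed without round sperm replicate 2, the highest of the 3.

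For 5 families chosen with earlier results of these data known, general paralogues were set beside the meiotic gene. Smc1a, the SMC subunit of general cohesin, fell by 6.05 ± 0.13 in round sperm relative to ahES cells, Rad21 by 4.43 ± 0.16, Stag2 by 5.55 ± 0.10 and Stag1 by 1.67 ± 0.07 (log2 difference ± SE), while Smc1b, Rec8 and Stag3 rose. Ccna2, the cyclin of dividing cells, fell by 2.82 ± 0.06 beside the rise of Ccna1. Hspa8, the constitutive HSP70, fell by 5.74 ± 0.06 beside the rise of Hspa2. The opposite signs describe these families and not the meiosis genes as a whole, and 40.8% of all tested genes were lower in round sperm. Among the MutL homologues the sign was shared: Mlh3 differed by -0.98 ± 0.14, which did not pass, and Pms2 by -3.40 ± 0.16, which did. In a list of mitotic counterparts and shared repair genes, 31 of 35 had a probe set and 31 were tested: 2 were higher in round sperm (the nuclease subunit Mus81 by 2.41 and the cohesin loader Nipbl by 2.24) and 22 were lower, with a median of -2.55, where 32.2% of all tested genes were higher and 40.8% lower. The mismatch repair gene Msh6 was among the lower ones, at 8.78 ± 0.08 in round sperm and 13.36 ± 0.24 in ahES cells.

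**Figure D3:**
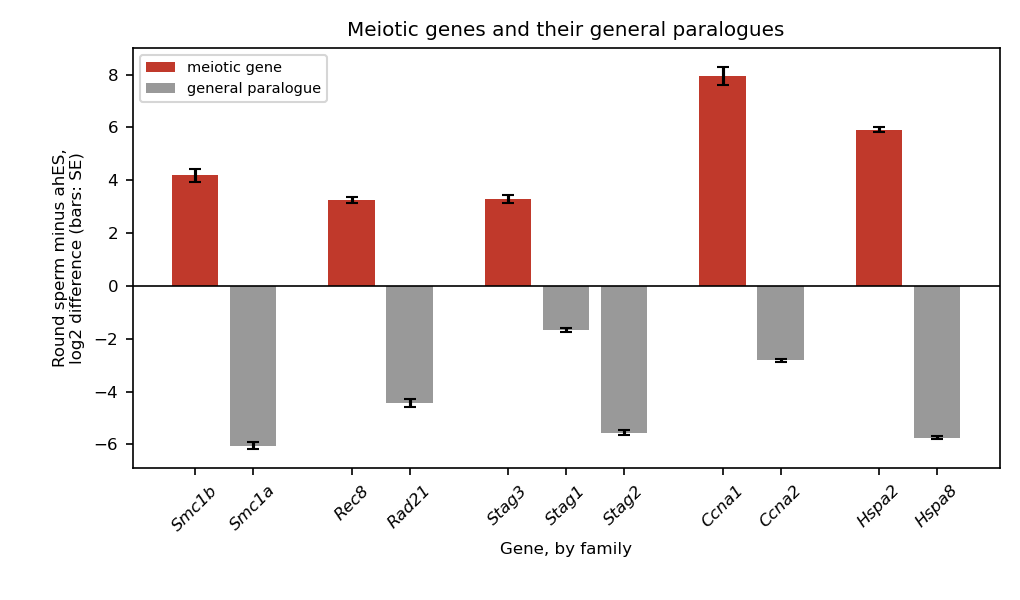
Log2 differences of round sperm minus ahES cells for meiotic genes (red) and their general paralogues (grey) in 5 families; bars start at 0 and error bars are SE. Each red bar points up and each grey bar points down, from 7.95 for Ccna1 to -6.05 for Smc1a.

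Other genes of meiotic prophase were mixed in the same comparison. Of 40 in the list, 28 had a probe set and 26 were tested, with 12 higher and 10 lower in round sperm. Over all tested genes, 32.2% were higher and 40.8% lower. The median difference was 0.47 over the 26 genes and -0.33 over all tested genes. Of the 26, 3 were tested only through round sperm and 3 only through ahES cells. Mael, a piRNA pathway gene, was higher by 7.69 ± 0.15, Mns1 by 5.06 ± 0.11 and the transcription factor Tcfl5 by 4.91 ± 0.08. Tex19.1, a germline gene that ES cells also express, fell by 5.70 ± 0.10 and the RNA-binding protein Dazl fell by 2.58 ± 0.16. The rest of the 10 lower genes were Six6os1, Ccnb1ip1, Mei4, Rec114, Sgo2a, Sycp2l, Terb2 and Ythdc2. Arrays measure the RNA present, so transcripts carried over from meiosis and those made after it cannot be told apart.

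Against MEF, nearly all tested meiosis genes were higher in round sperm. Of 27 tested, 24 were higher, where 34.3% of all tested genes were. Mnd1 and Trip13 were lower (41.8% of all tested genes were), and Mlh3 did not pass at 0.07 ± 0.17. The arrays of the 24 higher genes all lay above the MEF arrays (41.0% of all tested genes did) and those of Mnd1 and Trip13 below them (48.6% did). Of the 27, 20 were tested only through round sperm, so these counts are a description. The median difference was 5.17 over the 27 genes and -0.32 over all genes tested. In the lists, 17 of 23 other prophase genes tested were higher in round sperm than in MEF and 1 lower (Sgo2a, a protector of centromeric cohesion), with 16 of the 23 tested only through round sperm, and 7 of 31 mitotic counterparts were higher and 19 lower. The largest bounds were Syce1, at least 390-fold higher, Stag3, at least 184-fold, Ccna1, at least 177-fold, and Smc1b, at least 117-fold. Syce1 levels were 13.98, 14.07 and 14.11 in round sperm, against 5.29, 5.05 and 4.87 in MEF. Mnd1 levels were 4.52, 4.29 and 3.91 in round sperm, against 6.67, 6.24 and 6.0 in MEF, and Trip13 levels were 7.47, 7.56 and 7.34 in round sperm, against 11.07, 10.92 and 11.26 in MEF. The groups were apart for all 3 of these genes, and the fall of Mnd1 was at least 1.74-fold with round sperm near background. Msh5 was higher by 1.43 ± 0.42, a value of 0.89 with an offset of 50 signal units, which did not pass.

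Many meiosis genes that were at background in MEF were above it in the haploid ES lines. Of 20 meiosis genes tested in ahES minus MEF, 17 were higher in ahES cells, where 21.1% of all tested genes were higher, and 0 were lower, where 21% of all tested genes were lower (0 also at an unadjusted p under 0.05, limma). Hspa2, Psmc3ip and Sycp1 did not pass. Of the 20, 13 were tested only through ahES cells and had to be higher there to be tested, so this count supports nothing by itself. For 16 of the 17 the arrays did not overlap (18 of 20 in all were higher without overlap, against 32.8% of all tested genes, and 0 lower, against 30.5%).

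Syce1, Hormad1, Stag3 and Smc1b had the 4 largest fitted differences, but all were near background in MEF, so only bounds on their size were measured. Syce1 levels ran from 9.41 to 10.29 with a median of 9.71 in ahES cells, against 5.29, 5.05 and 4.87 in MEF. Hormad1 levels ran from 7.35 to 10.31 with a median of 8.38 in ahES cells, against 4.17, 3.42 and 3.87 in MEF. Both genes were at background in MEF and above it on all 9 ahES arrays. Stag3 levels ran from 9.33 to 10.38 in ahES cells, against 5.29, 5.98 and 4.67 in MEF, and Smc1b levels from 7.45 to 8.73 in ahES cells, against 3.92, 4.04 and 3.86 in MEF. Relative to MEF, Syce1 was at least 21-fold higher, Stag3 at least 18.8-fold, Sycp3 at least 12.2-fold, Hormad1 at least 8.67-fold, Smc1b at least 6.46-fold and Rec8 at least 4.58-fold. Bounds of this kind cannot order the genes. Among genes measured on both sides, the smallest differences that passed were Mlh3 (1.05 ± 0.14) and Trip13 (1.41 ± 0.06). Stra8 and Tex12 also passed as fitted, but with MEF near background their bounds were 1.80-fold and 1.68-fold, under the 2-fold threshold. Stra8 differed by 1.18 ± 0.33 with overlapping ranges, and without MEF replicate 1 its value was 0.77 and that of Mlh3 0.92, neither of which passed. With an offset of 50, Tex12, Mlh3 and Stra8 did not pass.

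The 6 genes above background in every group can be read across all of them. Syce2 had levels of 13.49, 13.87 and 13.94 in round sperm, 12.12 to 12.69 in ahES cells, 12.51 to 12.66 in diploid ES cells and 9.32, 9.52 and 9.56 in MEF. Psmc3ip had levels of 12.88, 12.86 and 12.91 in round sperm, 9.02 to 9.90 in ahES cells, 9.70 to 10.10 in diploid ES cells and 8.92, 8.82 and 8.64 in MEF. Tex15 had levels of 12.69, 12.65 and 12.47 in round sperm, 9.21 to 10.38 in ahES cells, 9.10 to 9.81 in diploid ES cells and 7.64, 7.22 and 7.29 in MEF. These 3 genes were ordered round sperm, ES cells, MEF, with the kinds of ES cell overlapping. Hspa2 differed little between ES cells and MEF (0.33 ± 0.10 for ahES minus MEF), with levels of 8.04, 8.06 and 7.91 in MEF. Trip13 and Mlh3 were highest in ES cells: Trip13 reached 12.29 to 12.51 in diploid ES cells, and Mlh3 ran from 8.64 to 9.06 in diploid ES cells and was 7.33, 7.66 and 7.75 in MEF.

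Lists set beside the meiosis genes in ahES minus MEF showed the following. Of 23 other prophase genes tested, 18 were higher in ahES cells and 0 lower, where 21.1% of all tested genes were higher, and 16 of the 23 were tested only through ahES cells. Dazl was at 10.98 ± 0.48 in ahES cells and 3.49 ± 0.12 in MEF, Tex19.1 at 12.13 ± 0.15 in ahES cells and 4.70 ± 0.24 in MEF, and the kinase Aurkc at 10.75 ± 0.57 in ahES cells and 3.95 ± 0.11 in MEF, with MEF near background in each case. Of 31 mitotic counterparts and repair genes, all tested through both sides, 15 were higher and 0 lower, among them Msh6 by 3.08 ± 0.05 and Brca2 by 2.55 ± 0.06. Of 9 regulators of germline genes in the list, 5 were higher in ahES cells than in MEF (L3mbtl2, Mga, Pcgf6, Stra8 and Uhrf1), and 7 were lower in round sperm than in ahES cells (Dnmt1, E2f6, L3mbtl2, Max, Mga, Pcgf6 and Uhrf1), where 40.8% of all tested genes were lower. E2f6 levels were 7.59 ± 0.35 in round sperm and 9.90 ± 0.21 in ahES cells. The part of these regulators in the levels of the meiosis genes was not tested.

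Between haploid and diploid ES cells, 1 meiosis gene passed the test. Of 21 meiosis genes tested in ahES minus diploid ES, with cell line as a random block, Syce1 was higher in ahES cells, where 3.0% of all tested genes were higher. None was lower (0 of 21, limma), where 1.35% of all tested genes were lower. At an unadjusted p under 0.05, 2 genes were higher (Smc1b and Syce1) and 4 lower (Rec8, Stag3, Sycp3 and Stra8). Of 9 fibroblast markers, 2 were higher in ahES than in diploid ES cells, Dcn (2.08 ± 0.61) and Lum (1.47 ± 0.44), and 0 were lower. The median difference over the 9 was 1.28, against -0.03 over all tested genes. The diploid lines were not alike in these markers. Their summed signal was 2568 to 3191 in CS1-1 and 22340 to 23410 in R1, against 16740 to 24180 in the ahES lines. Their part in the meiosis genes was not tested. A p that misses the threshold does not show that the levels were equal, since only 3 haploid and 2 diploid lines were compared.

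Syce1 had levels of 10.25, 10.29 and 10.29 in AH129-5, 9.66, 9.74 and 9.71 in AH129-N1 and 9.56, 9.57 and 9.41 in AH129-NC1, against 8.13, 8.05 and 8.25 in CS1-1 and 8.95, 8.98 and 9.27 in R1. Every ahES array lay above every diploid ES array, as was the case for 7.21% of all tested genes. It was 2.34-fold higher in ahES cells (log2 difference 1.23 ± 0.23, adjusted p = 9.82e-04). The line CS1-1, the lowest, carried part of that size: without it the difference was 0.77, under 2-fold. With 1 mean per line, which leaves 5 values, the adjusted p was 0.115.

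Smc1b differed by 1.98 ± 0.69 between ahES and diploid ES cells (adjusted p = 0.0719), with lines far apart. Its levels were 8.13, 8.27 and 8.07 in AH129-5, 8.51, 8.73 and 8.61 in AH129-N1 and 7.47, 7.92 and 7.45 in AH129-NC1, against 7.16, 7.60 and 7.92 in CS1-1 and 5.72, 4.22 and 4.28 in R1. R1 stood apart, with 2 of its arrays at background. Without R1 replicate 1 the difference was 2.17 and passed (adjusted p = 0.0286), and without the line CS1-1 it was 3.39 and passed. Stra8 differed by -1.11 ± 0.37 (adjusted p = 0.0547), with means of 6.51 ± 0.45 in ahES cells (n = 9) and 7.62 ± 0.38 in diploid ES cells (n = 6). It passed in several of the other settings. Rec8 was below every diploid ES array in all ahES arrays (-0.70 ± 0.24, adjusted p = 0.0642), as were 6.83% of all tested genes. Of 25 other prophase genes tested, 1 was higher in ahES cells, Terb2, a partner of Terb1 and Majin (1.24 ± 0.31). Tex14, which keeps germ cell bridges open, was the 1 that was lower (-1.31 ± 0.24). The cohesin subunit Stag2 was the 1 gene of 31 mitotic counterparts that passed, higher by 1.07 ± 0.14. Over all tested genes, 3.0% were higher and 1.35% lower.

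**Figure D4:**
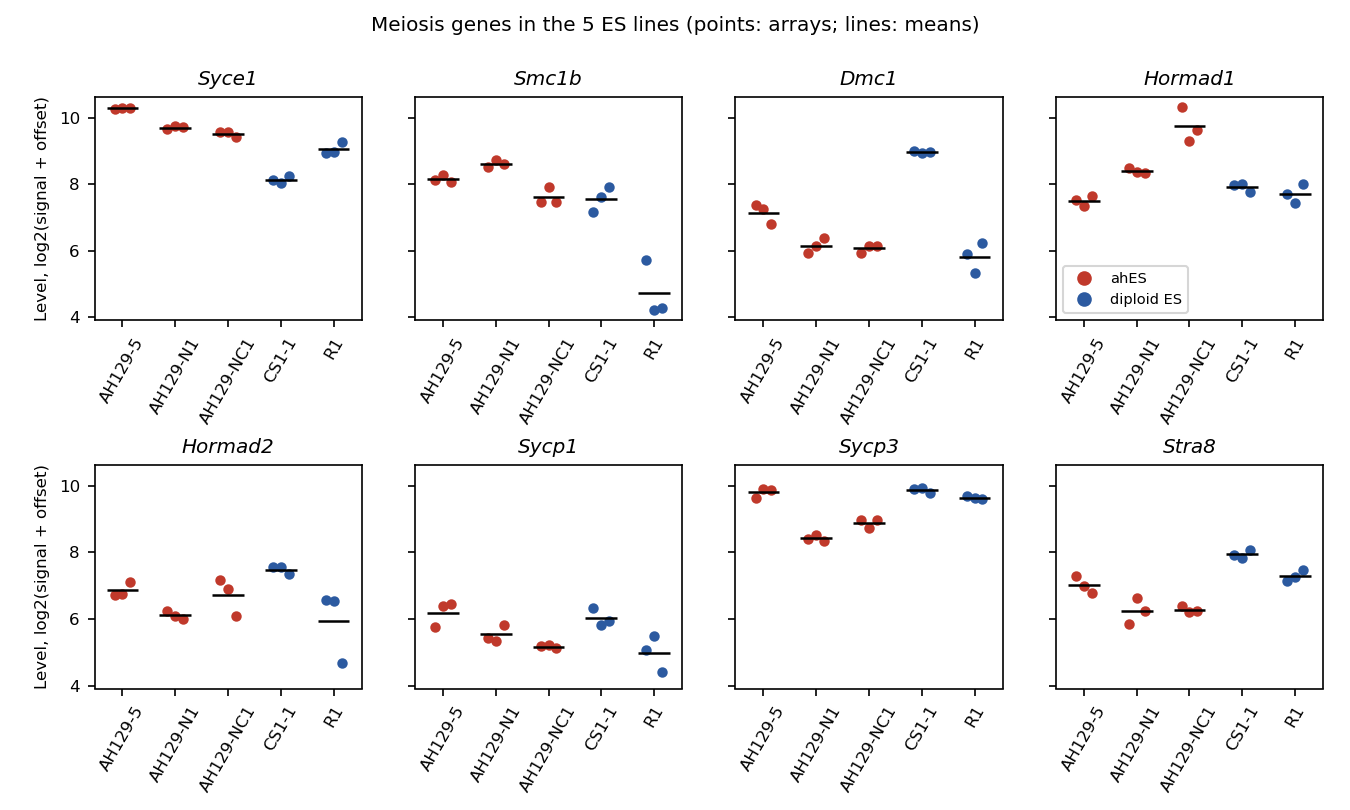
Levels of 8 meiosis genes in the 3 ahES lines (red) and the 2 diploid ES lines (blue), as log2 of MAS5 signal plus offset; points are arrays and horizontal lines are line means. Syce1 is higher in every ahES array than in any diploid array, while Smc1b, Dmc1 and Hormad2 differ most between the diploid lines and Hormad1 among the ahES lines.

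The diploid lines differed from each other in 4 meiosis genes, each higher in CS1-1. In CS1-1 minus R1, 4 of 21 tested genes were higher in CS1-1, where 4.17% of all tested genes were higher, and 0 were lower, where 5.69% were lower (2 at an unadjusted p under 0.05, Syce1 and Trip13, limma). Dmc1 had levels of 9.01, 8.94 and 8.97 in CS1-1, against 5.92, 5.34 and 6.23 in R1. Smc1b had levels of 7.16, 7.60 and 7.92 in CS1-1, against 5.72, 4.22 and 4.28 in R1. Neither gene overlapped between the lines. In all, 8 of the 21 genes had every CS1-1 array above every R1 array (31.3% of all tested genes did) and 3 had every one below (28.6% did). Dmc1 was 8.83-fold higher (log2 difference 3.14 ± 0.22, adjusted p = 5.68e-10) and Smc1b at least 3.92-fold higher (2.82 ± 0.30, adjusted p = 3.69e-07).

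Hormad2 had levels of 7.56, 7.55 and 7.35 in CS1-1, against 6.57, 6.55 and 4.68 in R1, a difference of 1.55 ± 0.38. Sycp1 had levels of 6.33, 5.82 and 5.93 in CS1-1, against 5.08, 5.48 and 4.42 in R1, a difference of 1.03 ± 0.34, or at least 1.43-fold with R1 near background. R1 replicate 3 was the lowest array for both. Without R1 replicate 3 Hormad2 differed by 0.93 and Sycp1 by 0.75, and neither passed, and Sycp1 also missed without CS1-1 replicate 1. Fibroblast markers moved with the diploid lines too: 7 of 9 were above the limit in CS1-1, with a summed signal of 2568 to 3191, against 9 of 9 and 22340 to 23410 in R1, and 16740 to 24180 in the ahES lines. The meiosis genes Dmc1, Smc1b, Hormad2 and Sycp1 were at 3.50 to 5.37 in MEF, whose fibroblast sum was 101400 to 107800. The part of the marker difference in the result was not tested. Because CS1-1 held the high end for Dmc1, the ahES minus diploid ES difference of Dmc1, -0.94 ± 0.60, was 0.63 without the line CS1-1 and -2.51 without R1.

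The 3 ahES lines were not alike for every meiosis gene. Of 20 tested by limma's F test over the lines, 5 passed and differed by at least 2-fold between the highest and lowest line. Over all tested genes, 9.32% did. Each adjusted p given here and in the next paragraph is that of the F test over the 3 lines. The named pairs, picked as highest and lowest, were not tested on their own. Hormad1, whose product marks unsynapsed axes, had levels of 10.31, 9.29 and 9.64 in AH129-NC1, against 8.50, 8.38 and 8.35 in AH129-N1 and 7.52, 7.35 and 7.66 in AH129-5. The lines did not overlap. AH129-NC1 exceeded AH129-5 by 2.24 (4.72-fold, adjusted p = 8.81e-08). Sycp3 had levels of 9.63, 9.92 and 9.87 in AH129-5, 8.97, 8.75 and 8.98 in AH129-NC1 and 8.42, 8.54 and 8.35 in AH129-N1, and AH129-5 exceeded AH129-N1 by 1.37 (adjusted p = 1.66e-09). Dmc1 had levels of 7.37, 7.26 and 6.81 in AH129-5, 5.95, 6.13 and 6.38 in AH129-N1 and 5.95, 6.13 and 6.15 in AH129-NC1, and AH129-5 exceeded AH129-NC1 by 1.07 (adjusted p = 6.09e-04).

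The other calls were close to the thresholds. Smc1b was 1.01 higher in AH129-N1 than in AH129-NC1 (adjusted p = 0.025). Sycp1 was at 5.76, 6.38 and 6.45 in AH129-5, against 5.19, 5.21 and 5.12 in AH129-NC1, a difference of 1.02 (adjusted p = 0.0373), or at least 1.67-fold with AH129-NC1 near background. Smc1b did not pass without AH129-N1 replicate 2 or 3 or AH129-NC1 replicate 1 or 3, nor did Sycp1 without AH129-5 replicate 2 or 3 or any 1 of the AH129-NC1 arrays. Dmc1 fell short without AH129-5 replicate 1 (0.96). No line was highest for all 5 genes: AH129-5 led for Sycp3, Dmc1 and Sycp1, AH129-N1 for Smc1b and AH129-NC1 for Hormad1.

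There were 5 meiosis genes with more than 1 probe set, and 3 of them did not give the same picture from each. For Dmc1 the second probe set read 5.20 ± 0.92 in round sperm and 6.47 ± 0.54 in ahES cells, where the one used read 6.79 ± 0.56 in round sperm and 6.46 ± 0.55 in ahES cells. On the second probe set MEF read 5.30 ± 0.01, so round sperm were not above MEF there, unlike on the one used, and Dmc1 was no longer called higher in round sperm than in MEF with the mean over probe sets. Both Dmc1 probe sets were highest in CS1-1 (8.34 on the second and 8.97 on the one used). For Msh5 the second probe set read 8.39 ± 0.18 in round sperm and 4.62 ± 0.56 in ahES cells, a wider gap than on the one used. For Trip13 a second probe set read 6.34 ± 0.36 in round sperm and 10.68 ± 0.18 in ahES cells, and the other, weak one read 5.07 ± 1.04 in round sperm and 5.88 ± 0.49 in ahES cells. The probe sets of Psmc3ip and of Terb1 each stood in the same order in round sperm, ahES cells and MEF.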

How the data were processed

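RNA from 21 samples was hybridised to Affymetrix mouse whole-genome arrays. The authors deposited log2 MAS5 signals, 1 per probe set and array, with MAS5 named, but no version given, per the submitters' processing notes. Base 2 was inferred from the values, which ran from 0 to 15.7, and other upstream steps are not given in the sources used here. Values were returned to signal, 9.70 units (median over arrays of the 20th percentile) were added and log2 was taken. Of 45101 probe sets, 64 controls were left out and 34945 had a single symbol. Testing required that, in at least 1 compared line or group, all 3 arrays exceeded their 40th percentile. Tests were limma 3.58.1 (statmod 1.5.0, R 4.3.3; trend, robust, 2-sided) over all genes tested, with Benjamini-Hochberg adjustment, and a gene passed at an adjusted p under 0.05 and 2-fold. Cell line was a random block for ahES minus diploid ES (consensus correlation 0.687). Other differences came from group means over 21 arrays, or over 15 ES arrays between lines of a kind. Where a group lay near background, folds are bounds. The number of arrays limits precision. Meiosis genes and lists were chosen with earlier results of these data known. Array values are given for genes passing between ES lines, the 6 largest rises and falls against ahES cells, the 4 largest against MEF, and genes above background everywhere. From each list, up to 4 genes with the smallest adjusted p were eligible. The paralogues, Mus81, Nipbl, Dazl and E2f6 were named outside that rule after their values were seen. So were the remaining prophase genes lower in round sperm than in ahES cells. The other settings varied the offset, filter, probe set, normalization, moderation, block and samples. The procedure was tested on simulated data.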

Additional observations from a re-analysis of the deposited data

Results flagged for a closer look

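In 9 cases a meiosis gene's difference from a comparison group depended on the cell line, by limma's test of the lines against each other. Between the diploid lines, the ahES minus diploid ES difference changed by 2.82 (log2) for Smc1b, by 3.14 for Dmc1, by 1.55 for Hormad2 and by 1.03 for Sycp1, each gene being higher in CS1-1 than in R1. Between the ahES lines, the ahES minus MEF difference changed by 2.24 for Hormad1 (AH129-NC1 over AH129-5), by 1.37 for Sycp3 (AH129-5 over AH129-N1), by 1.07 for Dmc1 (AH129-5 over AH129-NC1), by 1.02 for Sycp1 (AH129-5 over AH129-NC1) and by 1.01 for Smc1b (AH129-N1 over AH129-NC1). Smc1b, Dmc1 and Sycp1 were called within both kinds of ES cell. Among the ahES lines each of these calls was lost in several of the other settings. Sycp1 was also lost between the diploid lines in some settings, and its bounds given above were under 2-fold.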

How the results depend on the processing

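Counts of meiosis genes were recomputed with other offsets, filters, probe sets, normalizations, moderation, blocks and samples. Counts of genes lower in round sperm than in ahES cells were 4 with no offset and without the line AH129-N1 (Mlh3 and Stra8 added), against 2. The count lower in round sperm than in MEF was 1 with the filter at the 60th percentile, where Mnd1 was lost. In ahES minus diploid ES, 2 genes were higher (Smc1b added) with an offset of 50, no filter, the mean over probe sets and no line block, and 0 with 1 mean per line. There, 1 gene was lower (Stra8) with no filter, the mean over probe sets and no line block, and 2 without the line AH129-5 (Stra8 and Sycp3) and without the line R1 (Dmc1 and Stra8). Among the ahES lines the count of 5 was 3 with no offset, the filter at the 60th percentile, median centring and without the line AH129-N1, 2 with an offset of 50, quantile normalization and without the line AH129-5, and 1 without the line AH129-NC1. Leaving out each array in turn gave 20 to 20 genes higher and 2 to 4 lower for round sperm minus ahES (4 without round sperm replicate 2), 24 to 25 higher and 2 to 2 lower for round sperm minus MEF, 15 to 19 higher and 0 to 0 lower for ahES minus MEF, 1 to 2 higher and 0 to 1 lower for ahES minus diploid ES (Stra8 lower without AH129-5 replicate 1, AH129-N1 replicate 2 or R1 replicate 1), 2 to 4 higher and 0 to 0 lower for CS1-1 minus R1, and 4 to 5 among the ahES lines. The last count hides changes of gene: without AH129-NC1 replicate 1 Smc1b and Sycp1 were lost and Terb1 entered, without AH129-NC1 replicate 3 Smc1b and Sycp1 were lost and Majin entered, and without AH129-5 replicate 2 or 3 Sycp1 was lost and Majin or Stag3 entered. Direction turned for Hormad1 in round sperm minus ahES without the line AH129-5 (-0.024) and for Dmc1 in ahES minus diploid ES without the line CS1-1 (0.63). The cause of these changes was not tested.

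Arrays of different groups with the same replicate number did not deviate together. The mean correlation of their deviations from group means was -0.003 over 63 pairs. It was 0.0015 over 126 pairs with different numbers. The labels state no pairing, and whether samples of one number were handled together is not known. With the replicate number as a block, 20 genes were higher and 2 lower for round sperm minus ahES, 24 and 2 for round sperm minus MEF, 17 and 0 for ahES minus MEF, 1 and 0 for ahES minus diploid ES and 4 and 0 for CS1-1 minus R1, and 4 differed among the ahES lines (Sycp1 was not called).

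Signal limits the genes near background, whose folds are bounds and whose differences depend on the offset. The 4 genes without a single-symbol probe set were not analysed here, and 3 arrays per group limit the precision of every value.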
